A study of Mus musculus with 16 samples.

Results

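The genes described here are 37 genes of the endoplasmic reticulum (ER) stress response and of protein folding in the ER, taken from a fixed list of symbols. Of these, 35 had a probe on the arrays that matched by its transcript accession, and all 35 passed the filter on dim probes, out of 18566 genes and unnamed transcripts tested. Dnajb11 and Pdia3 had no matched probe and carry no value. RNA of airway epithelium, collected with a brush from mice of the FvB strain, was measured on 16 one-colour expression arrays in 4 groups of 4. The groups were knockout (ko) mice lacking Itgb6, the gene of integrin beta6, given ovalbumin (OVA), ko mice given saline, wild-type (wt) mice given OVA and wt mice given saline. OVA is a protein of hen's eggs with which allergic inflammation of the airways is commonly set off in mice. Mice of 6 to 8 weeks received 20 ug of OVA or saline into the peritoneal cavity on days 1, 4 and 7. They then received 10 ug of OVA or saline into the nose each week for 9 weeks, and tissue was taken 24 h after the last dose. The labels do not say whether an array holds 1 mouse or a pool, so p-values measure the spread between these samples.

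The ER is where secreted and membrane proteins fold, and unfolded proteins in its lumen set off the unfolded protein response through sensors of the ER membrane. PERK slows translation by phosphorylating eIF2-alpha and thereby raises the translation of ATF4. IRE1 splices the mRNA of Xbp1 into a form that encodes an active transcription factor, and ATF6 is cut in the Golgi to release one. ATF6 and XBP1 turn on genes of chaperones, folding enzymes and ER-associated degradation (ERAD), the route by which misfolded proteins are pulled back to the cytosol and destroyed. Secretory cells such as mucous cells of the airway use the same genes to enlarge their ER, since mucins are large proteins rich in disulfide bonds.

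Signals are given as log2 of the background-subtracted signal over the array's 75th percentile, so a value of 0 is a probe as bright as that percentile. That percentile ran from 78.0 to 793 intensity units between arrays. Probes called well above background made up 43.3% (ko_OVA 4) to 74.5% (wt_OVA 1) of an array. The arrays lay on 4 slides, and every group had an array on slide 1, which was scanned on another day than the other slides. Position 4 on the slides held only OVA arrays (wt_OVA 1 and 4, ko_OVA 2 and 3), and wt_saline 1, 2 and 3 lay at position 2. Effects of OVA and of array position therefore cannot be fully told apart. The probe of Itgb6 had -0.98, -1.71, -0.96 and -1.02 in ko mice after OVA, against -0.56, -0.57, -0.59 and -0.64 in wt mice after OVA. It had -1.02, -0.78, -0.73 and -0.92 in ko mice after saline, against -0.88, -0.93, -0.81 and -0.39 in wt mice after saline. Neither difference passed the test, and the position of the probe relative to the deleted part is not given in the sources used here, so it checks nothing. On the probe that stood for each gene, no value of the 35 genes was at the detection floor or saturated. Of their 560 values 17, 14 of them on slide 1, were left out because the scanner software flagged the spot as an outlier.

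The ER stress response element (ERSE) is the sequence to which ATF6 and XBP1 bind together with the CCAAT-binding factor NF-Y. Promoter windows of 250 bases before to 50 bases after the annotated start were searched on both strands for CCAAT, 9 bases of any kind, then CCACG. Of the 37 listed genes, 31 had a window, and 9 of these (29.0%) held the element, against 37 of 27025 genes (0.137%) overall. The 9 genes are Hspa5, Hsp90b1, Calr, Canx, Creld2, Dnajc3, Pdia6, Syvn1 and Derl3. Hsp90b1 has 2 copies. Hyou1, Atf6, Derl1, Creb3l1, Manf and Ern2 had no window. The stretches below are from RefSeq on GRCm38.p6 and read 5′ to 3′ along the strand of the gene, with the 19 bases of the element in capitals. Hspa5, Creld2 and Pdia6 are the genes with an element whose OVA response had the smallest p, Derl3 has the largest response, and Canx is the gene among the 9 whose response did not pass the test. Derl3 and Canx were added after their values were seen. Where the element lies on the opposite strand it reads as its reverse complement.
Hspa5, chr2:34772005-34772063, plus strand: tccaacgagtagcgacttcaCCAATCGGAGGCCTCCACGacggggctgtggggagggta
Creld2, chr15:88819500-88819558, plus strand, element on the opposite strand: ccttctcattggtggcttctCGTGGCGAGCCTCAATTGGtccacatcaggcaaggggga
Pdia6, chr12:17266471-17266529, plus strand: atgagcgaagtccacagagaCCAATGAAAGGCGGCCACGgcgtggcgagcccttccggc
Derl3, chr10:75893222-75893280, plus strand, element on the opposite strand: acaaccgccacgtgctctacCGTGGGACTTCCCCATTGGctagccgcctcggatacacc
Canx, chr11:50325780-50325838, minus strand: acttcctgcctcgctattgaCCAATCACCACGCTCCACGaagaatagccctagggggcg

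With OVA, 6 of 14 chaperones and folding enzymes rose in ko mice and 8 of 14 in wt mice, among them Hspa5, Sdf2l1, Manf, Creld2, Pdia4 and Pdia6 in both. Averaged over the genotypes, 20 of the 35 genes rose and 0 fell (limma, Benjamini-Hochberg adjusted p under 0.05 over all 18566), against 3.72% of all genes tested that rose. In ko mice 7 of 35 rose, against a background of 0.479%, and in wt mice 12 of 35 rose, against 1.56%. The 7 genes that rose in ko mice were among the 12 that rose in wt mice. The median log2 change of the 35 was 0.47 in ko mice, 0.62 in wt mice and 0.45 in the average of both, while that of all genes tested was 0.00, 0.00 and 0.01. A total of 31 of the 35 changes were positive in both genotypes. Every ko_OVA array lay above every ko_saline array for 13 of 35 genes (3.09% of all genes tested), and every wt_OVA array above every wt_saline array for 22 of 35 (4.87% of all). For these counts, arrays whose spot was left out were not counted. With signals scaled to the array median in place of the 75th percentile, 6 genes rose in the average, 0 in ko mice and 1 in wt mice, and with array position as a block 13, 3 and 6. Without ko_OVA 2 the count in ko mice was 4, and a fit of only the ko groups gave 0. With slide as a fixed block the averaged calls of Ppp1r15a (adjusted p = 0.087), Xbp1 (adjusted p = 0.15), Atf6 (adjusted p = 0.0542), Hsp90b1 (adjusted p = 0.0605), Hyou1 (adjusted p = 0.0643) and Syvn1 (adjusted p = 0.0519) were lost, with changes between 0.31 and 0.97 that were all positive. In whole brushings, more cells of a type and more RNA per cell cannot be told apart.

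By branch, the average over genotypes had 11 of 14 chaperones and folding enzymes risen (median log2 change 0.84), 4 of 10 ERAD genes (0.33) and 2 of 3 genes of ATF6 and its relatives (0.45). It had 2 of 3 genes of the IRE1 branch risen (0.40) and 1 of 5 of the PERK branch (0.29). In ko mice the counts were 6 of 14 chaperones and folding enzymes, 0 of 10 ERAD genes, 1 of 3 genes of ATF6 and its relatives, 0 of 3 of the IRE1 branch and 0 of 5 of the PERK branch. In wt mice they were 8 of 14, 2 of 10, 1 of 3, 1 of 3 and 0 of 5 in the same order. The medians in ko mice were 0.81, 0.30, 0.47, 0.47 and -0.02, and in wt mice 0.82, 0.40, 0.59, 0.34 and 0.42, again in that order. The median of each branch in the average was positive under every alternative processing run. In ko mice that of the PERK branch lay between -0.11 and 0.25. The difference between branches was not tested.

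**Figure D1:**
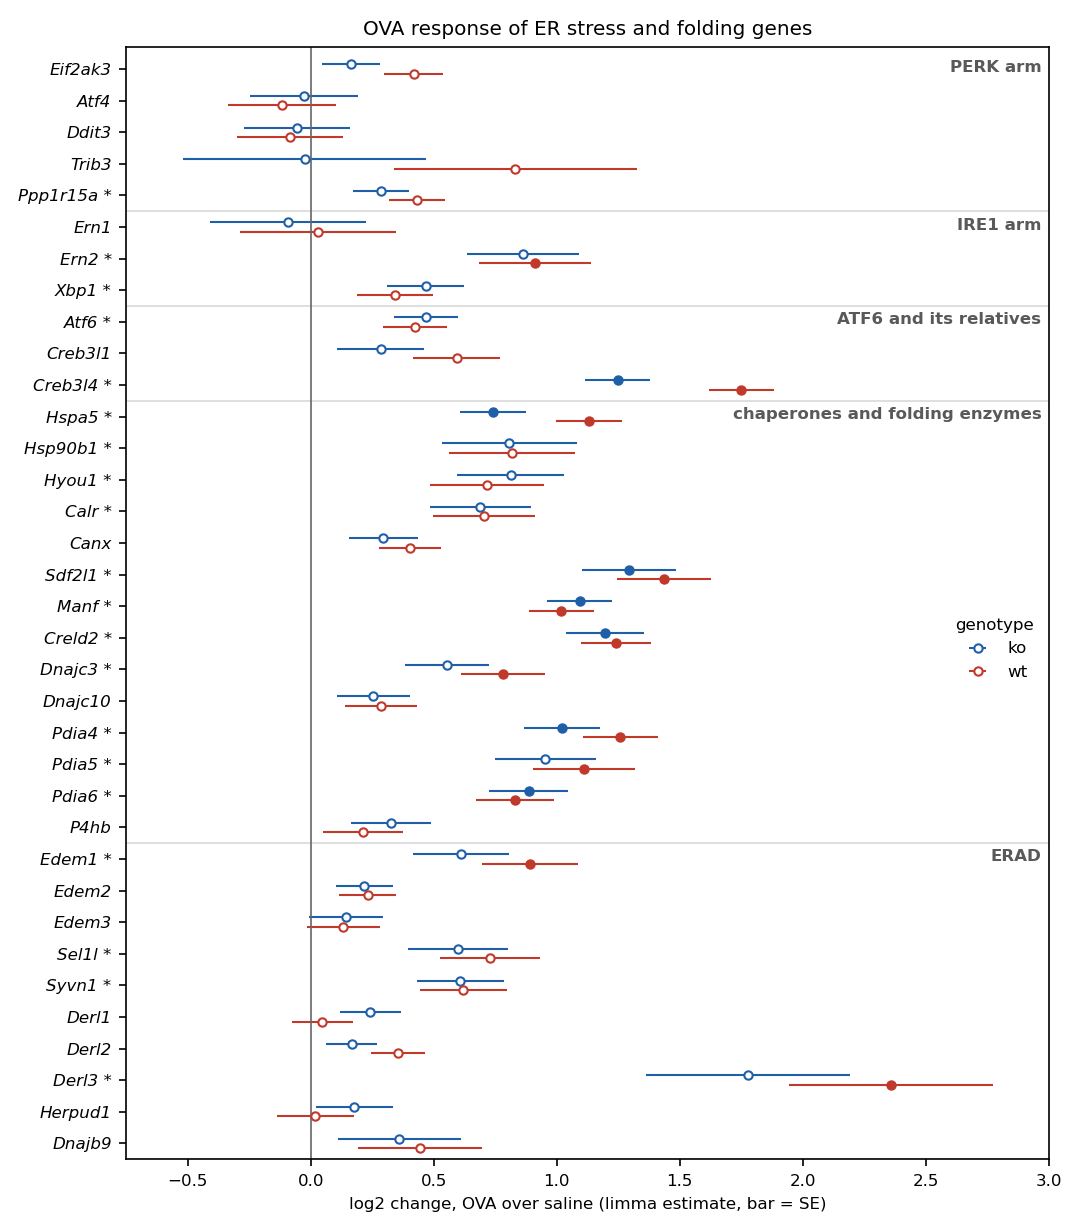
Log2 change with OVA of each gene (x axis, OVA over saline) by branch (y axis), in ko mice (blue) and wt mice (red), with bars of 1 SE. Filled points passed the test in that genotype, and an asterisk marks the 20 genes that rose in the average over genotypes. Derl3 and Creb3l4 lie far to the right, and Atf4, Ddit3 and Ern1 lie near 0.

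Among the membrane-bound transcription factors, Creb3l4, a relative of ATF6 that is likewise released from the membrane by cutting, had the smallest p of the 35 genes in the average over genotypes. In ko mice it had 2.13, 2.62, 2.37 and 2.04 after OVA, against 1.07, 1.14, 0.76 and 1.19 after saline. In wt mice Creb3l4 had 2.70, 2.60, 2.79 and 2.47 after OVA, against 0.80, 1.06, 0.89 and 0.81 after saline. All OVA arrays lay above all saline arrays in both genotypes. The log2 change was 1.25 ± 0.13 (SE, adjusted p = 0.000695) in ko mice and 1.75 ± 0.13 (SE, adjusted p = 4.41e-05) in wt mice, and the average was a 2.83-fold rise. Atf6, the sensor itself, had 1.28, 1.33, 1.11 and 1.45 after OVA, against 0.92, 0.57, 1.17 and 0.64 after saline in ko mice. In wt mice Atf6 had 1.49, 1.35, 1.31 and 1.34 after OVA, against 0.97, 0.75, 0.92 and 1.15 after saline. It rose by 0.45 ± 0.09 (SE, adjusted p = 0.0101) in the average and in neither genotype alone, and in wt mice its OVA arrays lay above its saline arrays without overlap. The other Atf6 probe, which was dimmer, had a smaller change of 0.25 in the average, with 0.16 in ko mice and 0.34 in wt mice. Creb3l1, known as OASIS and best known from bone and other secretory cells, had a change of 0.44 (adjusted p = 0.0518) in the average, just outside the threshold. Its change was 0.28 in ko mice and 0.59 in wt mice.

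The IRE1 branch has 2 sensor genes, Ern1, which is expressed broadly, and Ern2, which is largely restricted to mucous epithelia of gut and airway. Ern2 had -0.00, 0.95, 0.52 and 0.40 after OVA, against -0.01, -0.48, -0.83 and -0.27 after saline in ko mice. In wt mice Ern2 had 0.65, 0.41, 1.19 and 0.72 after OVA, against 0.17, -0.06, -0.44 and -0.34 after saline. The groups did not overlap in either genotype, although ko_OVA 1 and the highest ko_saline array were nearly equal. Ern2 changed by 0.86 (adjusted p = 0.121) in ko mice, by 0.91 (adjusted p = 0.0491) in wt mice and by 0.89 (adjusted p = 0.0046) in the average. Its call in wt mice was lost without any single one of 12 of the 16 arrays (ko_OVA 3 and 4, ko_saline 1, 2 and 4, wt_OVA 1, 3 and 4, and wt_saline 1 to 4), with changes between 0.76 and 1.03 and adjusted p up to 0.144. Ern1 had a change of -0.03 (adjusted p = 0.961) in the average, and its dim probe read between -3.15 and -1.49 over all arrays. Xbp1, whose mRNA IRE1 splices, had 3.28, 3.09, 2.70 and 2.94 after OVA, against 2.50, 2.16, 2.77 and 2.72 after saline in ko mice. In wt mice Xbp1 had 2.98, 3.06, 3.40 and 2.95 after OVA, against 2.63, 2.72, 2.94 and 2.74 after saline, with no overlap. It rose in the average by 0.40 (adjusted p = 0.041). That call was lost without any single one of 11 arrays (ko_OVA 1, 2 and 4, ko_saline 1 and 2, wt_OVA 1, 2 and 3, and wt_saline 1, 2 and 4), with changes between 0.34 and 0.43 and adjusted p up to 0.0859. The array reads the total Xbp1 signal of 1 probe, so spliced and unspliced mRNA are not told apart.

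**Figure D2:**
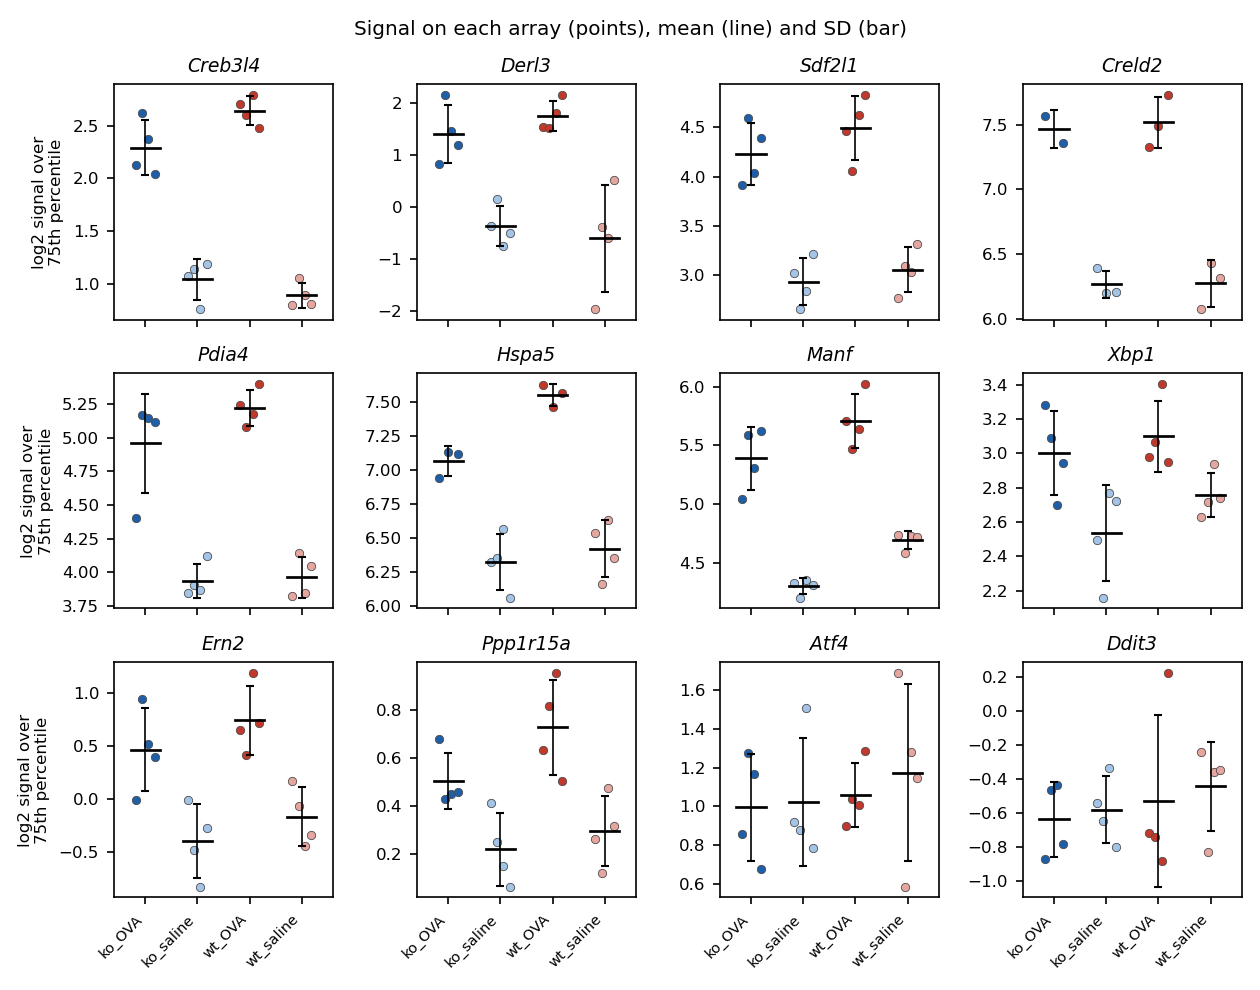
Log2 signal over the array's 75th percentile (y axis, scaled to each gene) of 12 genes on each array (points) of the ko_OVA, ko_saline, wt_OVA and wt_saline groups, with group mean (line) and SD (bar). Creb3l4 and Creld2 show OVA arrays clear of saline arrays, and Atf4 and Ddit3 show groups that overlap.

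The PERK branch gave 1 gene that passed. Ppp1r15a encodes GADD34, which brings a phosphatase to eIF2-alpha and so ends the arrest of translation. It had 0.68, 0.43, 0.45 and 0.46 after OVA, against 0.41, 0.25, 0.15 and 0.06 after saline in ko mice. In wt mice Ppp1r15a had 0.63, 0.82, 0.95 and 0.50 after OVA, against 0.26, 0.12, 0.47 and 0.32 after saline. The groups did not overlap in either genotype. It rose by 0.36 (adjusted p = 0.0181) in the average, a 1.28-fold change, and passed in neither genotype alone. That call was lost with slide as a fixed block, with a change of 0.31 (adjusted p = 0.087), and with normexp background correction, also with 0.31 (adjusted p = 0.156). Eif2ak3, which encodes PERK, had 0.16 in ko mice, 0.42 in wt mice and 0.29 (adjusted p = 0.055) in the average. Atf4, the transcription factor that PERK signalling raises mainly through translation, had 0.86, 1.28, 1.17 and 0.68 after OVA, against 0.92, 0.88, 1.51 and 0.78 after saline in ko mice. In wt mice Atf4 had 0.90, 1.04, 1.01 and 1.29 after OVA, against 1.69, 0.59, 1.28 and 1.14 after saline. The groups overlapped in both genotypes, the change in the average was -0.07 (adjusted p = 0.839), and its 95% interval ran from -0.40 to 0.26. Ddit3 encodes CHOP, the transcription factor of ATF4's programme that is linked to cell death. It had -0.87, -0.46, -0.44 and -0.78 after OVA, against -0.54, -0.65, -0.33 and -0.80 after saline in ko mice and a change of -0.07 (adjusted p = 0.843) in the average, with a 95% interval from -0.40 to 0.26. In wt mice 3 of 4 OVA arrays read lower than 3 of 4 saline arrays, and wt_OVA 4 read the highest of all at 0.22. Trib3, a pseudokinase induced by ATF4 and CHOP, was dim and variable, with -2.73, -1.65, -1.75 and -1.90 in ko mice after OVA and -3.03, -2.78, -0.17 and -1.94 after saline. Its change was -0.02 in ko mice and 0.83 in wt mice, and it passed in neither. The other Trib3 probe, which was dimmer, had -0.25 in ko mice and 0.11 in wt mice. The averages of the 2 probes had opposite signs, 0.40 and -0.07, and neither is a call. In wt mice every OVA array lay above every saline array for Trib3, Eif2ak3 and Ppp1r15a. These are 3 of the 5 genes of the branch, against 4.87% of all genes tested.

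Of 19 genes outside the list that ATF4 switches on, 1 rose and 2 fell in the average, against 3.72% of all genes tested that rose and 2.74% that fell, with a median change of 0.00. Aldh18a1, an enzyme of proline synthesis, rose by 0.65 (adjusted p = 0.0193). Stc2, a secreted glycoprotein, fell, with a change of -0.42 (adjusted p = 0.0167), and so did Slc3a2, the heavy chain of amino acid transporters, with -0.40 (adjusted p = 0.0443). None of the 3 tested genes of the cytosolic eIF2 kinases passed (Eif2ak2 0.14 (adjusted p = 0.678), Eif2ak4 -0.08 (adjusted p = 0.705), limma), and 0 of them had an unadjusted p under 0.05.

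Chaperones of the Hsp70 and Hsp90 families hold newly made chains in the ER lumen. Hspa5, also called BiP, is the Hsp70 that also keeps the sensors inactive. In ko mice it had 6.94, 7.14 and 7.12 after OVA, against 6.32, 6.35, 6.57 and 6.06 after saline. In wt mice Hspa5 had 7.63, 7.47 and 7.57 after OVA, against 6.54, 6.17, 6.64 and 6.36 after saline, with 3 OVA arrays measured in each genotype and no overlap in either. It rose by 0.74 ± 0.13 (SE, adjusted p = 0.0257) in ko mice and by 1.13 ± 0.13 (SE, adjusted p = 0.00107) in wt mice. The call in ko mice was lost without any single one of ko_OVA 2, ko_OVA 4, ko_saline 1 or ko_saline 2, with changes between 0.71 and 0.75 and adjusted p up to 0.12. Hsp90b1, or GRP94, the ER's Hsp90, rose by 0.81 (adjusted p = 0.022) in the average. Without ko_saline 2 or ko_saline 3 that call was lost, with changes of 0.71 and 0.78 and adjusted p up to 0.0571. Its other probe, which was dimmer, had a smaller change of 0.46 in the average, with 0.32 in ko mice and 0.60 in wt mice. Hyou1, a large Hsp70 relative that exchanges nucleotide on BiP, rose by 0.76 (adjusted p = 0.0173) in the average, and neither of these genes passed in 1 genotype alone. Dnajc3, a co-chaperone of BiP, had 3.58, 3.54, 3.81 and 3.08 after OVA, against 2.71, 2.96, 3.26 and 2.87 after saline in ko mice. In wt mice Dnajc3 had 3.70, 3.74, 3.69 and 3.47 after OVA, against 2.83, 2.51, 3.21 and 2.93 after saline, and it rose there by 0.78 (adjusted p = 0.0265) and in the average by 0.67 (adjusted p = 0.00467). Its call in wt mice was lost without any single one of wt_OVA 1, 2 or 3 or wt_saline 1, 2 or 4, with changes between 0.66 and 0.80 and adjusted p up to 0.0916.

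Sdf2l1, Manf and Creld2 are small lumenal proteins that work with BiP or are secreted under ER stress. Sdf2l1, which helps BiP's co-chaperones keep clients from clumping, had 3.91, 4.59, 4.03 and 4.39 after OVA, against 3.02, 2.66, 2.85 and 3.22 after saline in ko mice. In wt mice Sdf2l1 had 4.46, 4.06, 4.63 and 4.83 after OVA, against 2.77, 3.10, 3.03 and 3.32 after saline. No group overlapped, and it rose by 1.29 (adjusted p = 0.00508) in ko mice and 1.44 (adjusted p = 0.00126) in wt mice. Manf, a BiP cofactor that also acts as a secreted factor, had 5.04, 5.59, 5.31 and 5.62 after OVA, against 4.33, 4.20, 4.35 and 4.31 after saline in ko mice. In wt mice Manf had 5.71, 5.47, 5.64 and 6.02 after OVA, against 4.74, 4.58, 4.73 and 4.72 after saline. OVA and saline arrays did not overlap in either genotype, and Manf rose by 1.09 (adjusted p = 0.00102) in ko mice and 1.02 (adjusted p = 0.00104) in wt mice. Creld2, a protein with epidermal growth factor-like domains that is induced by ER stress, had 7.57 and 7.36 after OVA, against 6.39, 6.20 and 6.21 after saline in ko mice, with 2 OVA and 3 saline arrays measured. In wt mice Creld2 had 7.33, 7.49 and 7.73 after OVA, against 6.08, 6.43 and 6.32 after saline, with 3 arrays in each group. It rose by 1.20 (adjusted p = 0.0109) in ko mice and 1.24 (adjusted p = 0.00291) in wt mice, and its call in ko mice was lost without ko_OVA 2 or ko_saline 2, with changes of 1.09 and 1.16 and adjusted p up to 0.0952.

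The protein disulfide isomerases, which make and reshuffle disulfide bonds, rose in 3 of 4 cases in the average. Pdia4, or ERp72, had 4.40, 5.17, 5.15 and 5.12 after OVA, against 3.85, 3.90, 3.87 and 4.12 after saline in ko mice. In wt mice Pdia4 had 5.24, 5.08, 5.17 and 5.40 after OVA, against 3.82, 4.14, 3.85 and 4.04 after saline. It rose by 1.02 (adjusted p = 0.00589) in ko mice and 1.26 (adjusted p = 0.000765) in wt mice with no overlap, although ko_OVA 1 read clearly below the other ko_OVA arrays. Pdia5 had 0.88, 1.98, 1.41 and 0.93 after OVA, against 0.42, 0.25, 0.17 and 0.54 after saline in ko mice, where it reached 0.95 (adjusted p = 0.0503), just outside the threshold. In wt mice Pdia5 had 1.21, 1.45, 1.74 and 1.56 after OVA, against 0.23, 0.61, 0.26 and 0.42 after saline and rose by 1.11 (adjusted p = 0.0106). Pdia6, which acts on IRE1 as well as on client proteins, rose by 0.89 (adjusted p = 0.0196) in ko mice and 0.83 (adjusted p = 0.013) in wt mice. Without any single one of ko_OVA 2, 3 or 4, ko_saline 1 or ko_saline 3, its call in ko mice was lost, with changes between 0.81 and 0.87 and adjusted p up to 0.0653. P4hb, the founding member of the family and a subunit of collagen prolyl hydroxylase, had 5.24, 5.85, 5.83 and 5.42 after OVA, against 5.31, 5.16, 5.04 and 5.51 after saline in ko mice. Its change was 0.27 (adjusted p = 0.202) in the average, and that of Dnajc10, a reductase that serves degradation, was 0.27 (adjusted p = 0.151). The lectin chaperones Calr and Canx bind glycoproteins. Calr, which is soluble, rose in the average by 0.70 (adjusted p = 0.0116), and Canx, which is bound to the membrane and had 5 of its 16 values left out, had 0.35 (adjusted p = 0.0632).

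**Figure D3:**
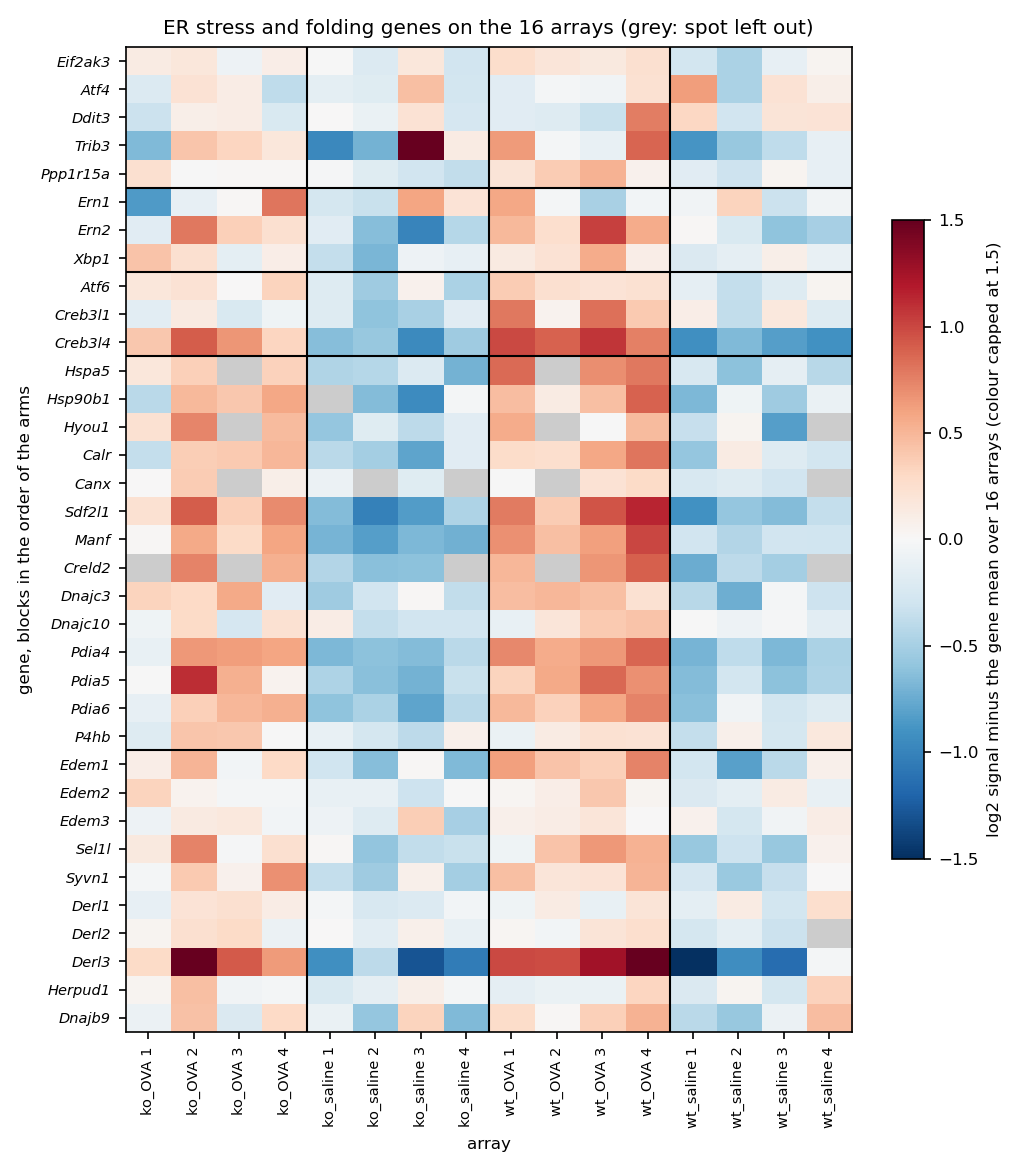
Log2 signal of the 35 genes (y axis, in the order of the branches) on the 16 arrays (x axis), as the difference from each gene's mean over the arrays, with colour capped at 1.5 and spots that were left out in grey. The ko_OVA and wt_OVA blocks are mostly red from Hspa5 to Pdia6, ko_OVA 1 is paler there than the other ko_OVA arrays, and the rows of Atf4 and Ddit3 show no block.

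ERAD was led by Derl3. The derlins form part of the channel through which misfolded proteins leave the ER, and Derl3 is known to be induced by ER stress. It had 0.83, 2.16, 1.47 and 1.19 after OVA, against -0.37, 0.15, -0.74 and -0.50 after saline in ko mice. In wt mice Derl3 had 1.54, 1.52, 1.81 and 2.15 after OVA, against -1.96, -0.38, -0.59 and 0.52 after saline. The groups did not overlap in either genotype, and the saline values spread widely in wt mice through wt_saline 1. Derl3 rose by 2.07 ± 0.29 (SE, adjusted p = 0.000843) in the average, a 4.2-fold change, by 2.36 (adjusted p = 0.00811) in wt mice, and in ko mice its change of 1.78 (adjusted p = 0.0738) did not pass. Derl2 had 0.26 (adjusted p = 0.0599) and Derl1 0.14 (adjusted p = 0.409) in the average, so 1 of the 3 derlins rose.

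The core of the ubiquitin ligase that receives ERAD clients rose in the average, with Syvn1, the ligase HRD1, at 0.61 (adjusted p = 0.0101) and its adaptor Sel1l at 0.66 (adjusted p = 0.0143). Neither passed in 1 genotype alone. Edem1, which trims mannose from glycoproteins to mark them for disposal, read between 1.70 and 2.25 in ko mice after OVA, against 1.07 to 1.76 after saline. In wt mice Edem1 had 2.35, 2.16, 2.10 and 2.48 after OVA, against 1.46, 0.93, 1.33 and 1.82 after saline. It rose by 0.89 (adjusted p = 0.0259) in wt mice and by 0.75 (adjusted p = 0.005) in the average, and its call in wt mice was lost without any single one of wt_OVA 1 or 4 or wt_saline 1, 2 or 3, with changes between 0.74 and 0.92 and adjusted p up to 0.0879. Its relatives Edem2 and Edem3 had 0.22 (adjusted p = 0.129) and 0.14 (adjusted p = 0.537) in the average. Herpud1, a membrane protein that recruits the ligase and is a known target of all branches, read between 4.97 and 5.47 in ko mice after OVA, against 4.80 to 5.11 after saline. In wt mice Herpud1 had 4.89, 4.93, 4.93 and 5.34 after OVA, against 4.81, 5.07, 4.76 and 5.38 after saline. The groups overlapped in both genotypes, and the change in the average was 0.10 (adjusted p = 0.67). Dnajb9, the BiP co-chaperone ERdj4 and a target of XBP1, had 0.40 (adjusted p = 0.219).

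The promoter elements were then set beside the OVA responses. Of the 16 genes that rose in the average and had a window, 8 held an ERSE, as did 1 of the 13 tested genes with a window that did not pass. By branch the element was in 7 of 14 windows of chaperones and folding enzymes, 2 of 9 of ERAD genes and 0 of 5 of the PERK branch, and also in 0 of 2 of the IRE1 branch and 0 of 1 of ATF6 and its relatives. Creb3l4, Sdf2l1 and Pdia4, which rose in both genotypes, had no match in these windows. ERSE-II, searched as ATTGG, 1 base, then CCACG, was in the windows of Dnajb11 and Herpud1, 2 of 31 (6.45%), against 0.0444% of all genes. The C/EBP-ATF composite element, to which ATF4 binds, was searched as TGATGCAA and was in the window of Herpud1 alone among the 31 (3.23%, against 1.03% of all). The unfolded protein response element, searched as TGACGTGG, was in 0 of 31 windows and 0.714% of all. The core ACGTG, which the unfolded protein response element contains, as does an ERSE followed by TG, was in 13 of 31 (41.9%), against 21.8% of all genes.

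**Figure D4:**
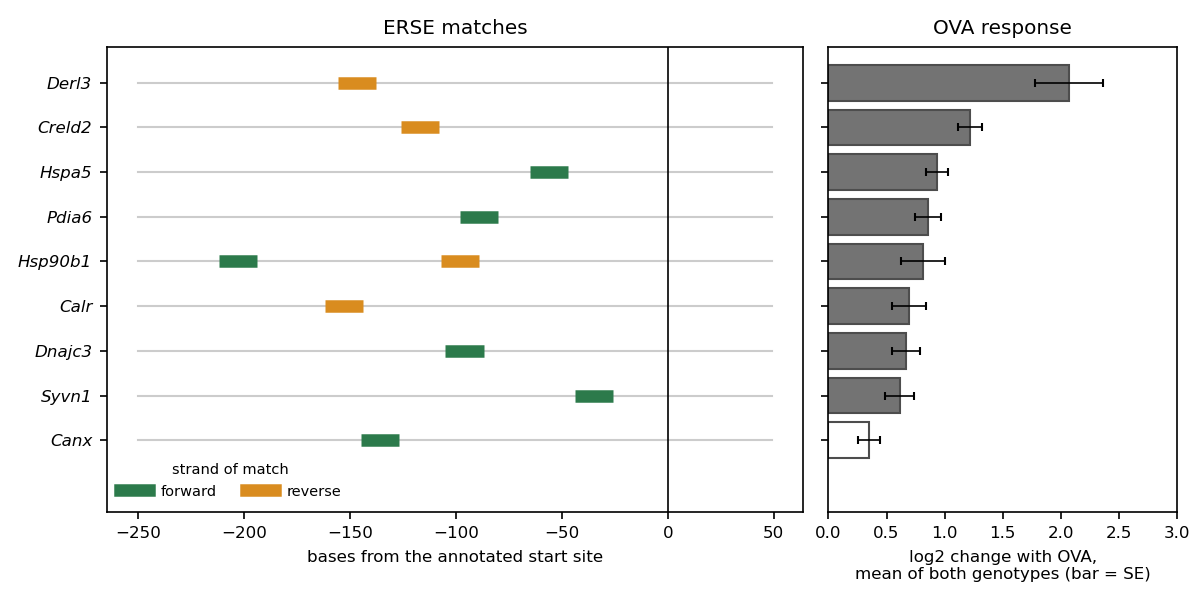
Position of the ERSE (left, bases from the annotated start site, green on the strand of the gene and orange on the opposite strand) in the 9 genes that hold it, ordered by their log2 change with OVA averaged over genotypes (right, bars of 1 SE). Filled bars passed the test, and the open bar, Canx, did not. All 10 copies lie before the start, and Hsp90b1 has 2.

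Genes of the same compartment outside the list are set against the 3.72% of all genes tested that rose in the average. Of 23 tested other folding enzymes 7 rose and 0 fell in the average (median 0.23). Agr2, a disulfide isomerase needed for mucin folding that also stands in the mucous cell list, rose by 1.55 (adjusted p = 0.000387). Fkbp11, a prolyl isomerase of secretory cells, rose by 1.48 (adjusted p = 0.000835), Ero1b, an oxidase that recharges the isomerases, by 0.66 (adjusted p = 0.00355), and Erp44, which retains client proteins in the ER, by 0.31 (adjusted p = 0.0098). Of 19 genes of protein translocation and signal peptide cleavage 6 rose and 0 fell (median 0.26), among them Sec11c (0.62) and Spcs2 (0.42) of the signal peptidase, Ddost (0.56) of the glycosylating enzyme and Ssr3 (0.54) of the translocon. Of 15 other degradation genes 2 rose and 0 fell (median 0.05), which were Selenok (0.43) and Erlec1 (0.31). Of 14 other sensors and regulators 1 rose, Wfs1 (0.32 (adjusted p = 0.046)), an ER membrane protein.

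Markers of mucous cells moved with the ER genes. All 13 tested mucous cell markers rose in the average, with a median change of 1.55. Muc5ac, the gel-forming mucin of the airway, rose by 3.32 in ko mice and 3.47 in wt mice, and Clca1, a secreted protein of mucous cells, by 5.41 and 5.34. On the log2 scale, the summed signal of the mucous markers ran from 9.00 to 10.4 in ko mice after OVA, against 7.49 to 7.96 after saline. In wt mice it ran from 9.39 to 10.6 after OVA, against 7.96 to 8.36 after saline. The median difference of the chaperones and folding enzymes from the saline mean of the same genotype was 0.47, 0.98, 0.98 and 0.89 on ko_OVA 1 to 4. That of the mucous markers was 0.92, 2.17, 1.70 and 1.53 on the same arrays. On wt_OVA 1 to 4 the chaperones and folding enzymes had 0.83, 0.71, 0.85 and 1.09, and the mucous markers had 1.51, 1.19, 1.69 and 1.70. Arrays ko_OVA 1 and wt_OVA 2 were the lowest of their groups for both lists. Spots that were left out were skipped in these medians and sums, so arrays were not compared over the same genes. Array wt_OVA 2 lacked Hspa5, Hyou1, Canx and Creld2, and ko_OVA 1 lacked Creld2. The bright markers Clca1 and Itln1 counted as well above background on 3 of 4 arrays of each OVA group. A spot left out does not count there, so some summed signals may miss them.

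**Figure D5:**
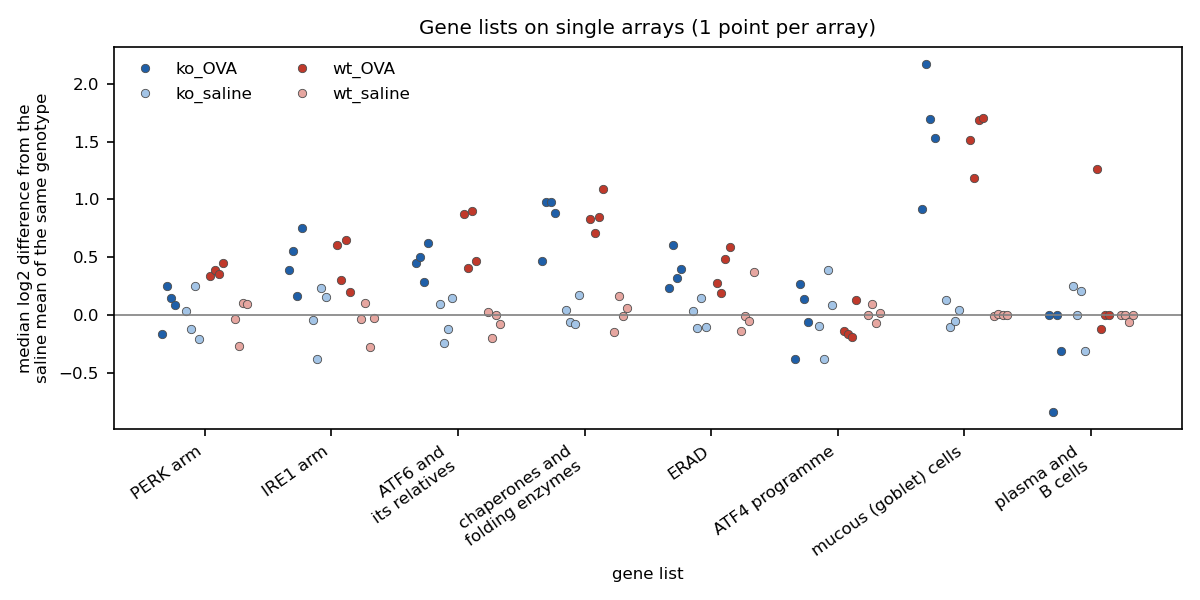
Median log2 difference from the saline mean of the same genotype (y axis) of the genes in each branch, of the ATF4 programme and of 2 marker lists (x axis), with 1 point per array for ko_OVA, ko_saline, wt_OVA and wt_saline. OVA arrays lie above saline arrays of the same genotype for chaperones and folding enzymes and for mucous markers, while for the ATF4 programme 3 wt_OVA arrays lie below and 1 above the wt_saline arrays, and the ko_OVA arrays lie within the range of the ko_saline arrays.

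Markers of other cells moved too. Of 9 ciliated cell markers 6 rose and 0 fell in the average, with a median of 0.39, and of 8 club cell markers 0 rose and 4 fell, with a median of -0.36. In ko mice 1 club cell marker fell and 3 of 8 changes were positive (median -0.24). In wt mice 4 club cell markers fell and 0 of 8 changes were positive (median -0.67). Of 6 mast cell markers 5 rose in the average, 0 in ko mice and 4 in wt mice. For the interaction 0 of them passed, as did 0 of all genes tested. All 6 interaction estimates were negative, a smaller response in ko mice, with a median of -1.70. An unadjusted p under 0.05 (limma) was reached by 5 of the 6, against 569 of all 18566 genes. After saline all 6 were already higher in ko mice than in wt mice, with a median difference of 4.74, and after OVA 5 of 6 were higher, with a median of 2.70. The summed signal of the mast cell markers on the log2 scale ran from 5.46 to 6.38 in ko mice after OVA, against 5.42 to 5.88 after saline, and from 2.58 to 3.48 in wt mice after OVA, against 0.016 to 1.23 after saline. Of 9 plasma and B cell markers 0 rose and 0 fell in the average by limma, and 1 had an unadjusted p under 0.05, against 3665 of all 18566 genes. The summed signal of the plasma and B cell markers on the log2 scale ran from 4.97 to 5.62 in ko mice after OVA, against 5.26 to 5.65 after saline, and from 5.14 to 5.63 in wt mice after OVA, against 5.32 to 5.48 after saline. These sums mostly follow Sdc1, whose group means lay between 4.70 and 5.04, against 2.48 to 3.02 for Jchain. In ko mice 3 of the 9 changes were positive (median -0.19), and in wt mice 6 of 9 (median 0.24). None passed in 1 genotype alone. An unadjusted p under 0.05 (limma) was reached by 3 in ko mice and 1 in wt mice, against 1807 and 3070 of all 18566 genes. Tnfrsf17, which plasma cells express, was at the detection floor on 3 of 4 ko_OVA, 4 of 4 ko_saline, 2 of 4 wt_OVA and 4 of 4 wt_saline arrays. The part of cell composition in the changes of the ER genes was not tested.

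Within single slides that held both agents, the direction stayed, with 1 or 2 arrays of each group and so no test. In ko mice the median change of the measured genes was 0.43 on slide 1, 0.27 on slide 2 and 0.62 on slide 4, with 26 of 31, 26 of 33 and 33 of 35 positive. In wt mice it was 0.29 on slide 1, 0.64 on slide 2 and 0.62 on slide 3, with 24 of 30, 33 of 35 and 33 of 35 positive. Creb3l4 had 1.18, 1.05 and 1.67 in ko mice and 1.79, 1.67 and 1.85 in wt mice on these slides. The PERK branch had medians of 0.36, 0.13 and 0.08 in ko mice and of 0.09, 0.46 and 0.32 in wt mice. The IRE1 branch had -0.02, 0.00 and 0.62 in ko mice and 0.33, 0.32 and 0.37 in wt mice.

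The genotypes were compared within each agent and for their response to OVA. After OVA 0 of 35 genes differed between ko and wt mice by limma, against 0.145% of all genes tested. An unadjusted p under 0.05 was reached by 4 of the 35 and by 943 of all 18566 genes. Hspa5 had 6.94, 7.14 and 7.12 in ko mice and 7.63, 7.47 and 7.57 in wt mice, all ko arrays lower, with a difference of -0.49 (adjusted p = 0.669). It was the 1 gene of the 35 that was lower without overlap, against 138 of all 18566 genes. Creb3l1 had -1.10, -0.80, -1.16 and -1.01 in ko mice and -0.14, -0.88, -0.12 and -0.55 in wt mice, with a difference of -0.60 (adjusted p = 0.615). The other two were Creb3l4, with -0.35 (adjusted p = 0.884), and Manf, with -0.32 (adjusted p = 0.884). After saline 0 of 35 differed (0.162% of all), and 1, Manf, had an unadjusted p under 0.05, against 1170 of all 18566 genes. Manf read between 4.20 and 4.35 in ko mice and between 4.58 and 4.74 in wt mice after saline, without overlap, a difference of -0.40 (adjusted p = 0.588). Without overlap, 1 of the 35 genes was lower and 1 higher in ko mice after saline, against 383 and 369 of all 18566.

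The response to OVA itself was not shown to differ between genotypes for any of the 35 genes. By limma's interaction term 0 of 35 passed, against 0% of all genes tested. An unadjusted p under 0.05 was reached by 569 of all 18566 genes and by 1 of the 35. That gene was Creb3l4, whose response was lower in ko mice by a log2 difference of -0.50 (adjusted p = 0.993), with a 95% interval from -0.90 to -0.10. Hspa5 followed with -0.39 (adjusted p = 0.993) and an interval from -0.80 to 0.03. The intervals of the other genes all included 0, and over the 35 genes they reached 0.33 to 1.49 to either side of the estimate, with a median of 0.49. The intervals were not adjusted for the number of genes tested. A difference larger than this reach could therefore also miss the threshold, as that of Creb3l4 did. Under scaling to the array median, the median interaction of the 35 genes turned to 0.21, against -0.05, while that of all genes moved to 0.28, against 0.01.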

How the data were processed

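RNA of 16 brushed airway epithelium samples (0.5 ug each, Cy3, per the labels' protocols) was hybridized to one-colour 4x44K arrays. The deposited scanner files hold background-subtracted signals in intensity units, per the file headers, made with Feature Extraction, whose version the headers give as 10.5.1.1 and the submitters' processing notes as 10.1. Log2 values in the deposited series table ranked probes as the median spot intensity does, and served as an alternative.

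Control spots and spots flagged as outliers were left out, repeated spots were averaged, and signals were divided by the array's 75th percentile, floored at -3.32 and log2 transformed. A probe was kept if its signal was well above background on 4 or more of the 16 arrays, which 25615 of 41174 probes met. The brightest kept probe stood for each gene. Of the 35 genes described, 14 had several kept probes, and 1 (Trib3) had probes of opposite sign in the average over genotypes, the dimmer of them near the floor. Symbols came from RefSeq accessions (24844 probes matched, GRCm38.p6 annotation).

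A linear model over all arrays, with 1 mean per group, was fitted in limma 3.58.1 (R 4.3.3), with Benjamini-Hochberg adjustment over 18566 genes and transcripts and a threshold of 0.05. Errors are SE of that fit, and intervals are at 95%. The number of arrays limits the precision. Same-numbered replicates deviated from their group means with correlations between -0.22 and 0.40, and the main fit did not use the numbers as pairs. These correlations cannot show whether the samples were paired. The genes, lists (branches, pathway lists, cell markers) and tests were chosen with earlier results of these data known. The rule for named genes took all listed genes, Itgb6, Muc5ac, Clca1 and, from each other list, up to 4 called genes or the 2 of smallest p. Alternatives covered scaling, background, filters, probes, blocks for slide, array position and replicate, array weights, and leaving out arrays. Promoter windows are RefSeq's. The C-terminal protein sequences that the rule also named were not used here.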

Additional observations from a re-analysis of the deposited data

Results flagged for a closer look

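In 7 of the 125 groups of 4 values tested, the highest or lowest array stood apart from the other 3 of its group by more than Dixon's critical value of 0.829, and chance alone flags about 1 group in 20. Array ko_OVA 1 stood apart for 3 genes. On it Calr read 4.93 against 5.66 to 5.79 on the other ko_OVA arrays, Pdia4 read 4.40 against 5.12 to 5.17, and Ppp1r15a read 0.68 against 0.43 to 0.46, so it was low for the chaperone and the isomerase and high for the phosphatase subunit. Array wt_OVA 4 stood apart for Ddit3, with 0.22 against -0.88 to -0.71, and for Herpud1, with 5.34 against 4.89 to 4.93, and was high for both. Manf read 4.58 on wt_saline 2 against 4.72 to 4.74 on the other wt_saline arrays, and Dnajc10 read 2.44 on ko_saline 1 against 1.98 to 2.05 on the other ko_saline arrays. Without ko_OVA 1 the calls of Pdia4 in ko mice and of Calr in the average were kept.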

How the results depend on the processing

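Of the 35 genes, the counts that rose in the average, in ko mice and in wt mice were 20, 7 and 12. Leaving out each of the 16 arrays in turn gave 18 to 21, 4 to 9 and 9 to 13. The lowest count in ko mice came without ko_OVA 2. Leaving out wt_OVA 1, wt_OVA 2 and ko_OVA 4 together, an alternative chosen after seeing the data, gave 14, 3 and 6. Array position as a fixed block gave 13, 3 and 6, array weights gave 27, 9 and 19, and scaling to the array median gave 6, 0 and 1. Since position 4 held only OVA arrays, the position block also takes away part of the OVA contrast. A fit of only the groups compared gave 0 in ko mice and 8 in wt mice, and does not apply to the average or the interaction. The replicate block gave 19, 6 and 11 and the slide as a fixed block gave 14, 5 and 9. The remaining settings gave 14 to 22, 5 to 9 and 8 to 15. No gene of the 35 fell under any setting, and the 3 genotype comparisons stayed at 0 under all of them. Creb3l4, Sdf2l1, Manf, Pdia4, Pdia6 and Derl3 rose in the average under all 31 alternatives, and Xbp1 under 13. Over all alternatives 158 calls of single genes were lost, 56 were gained and 335 values without a call changed sign. The cause was not tested.

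Under median scaling the median of all genes was -0.24 in wt mice and -0.10 in the average, against 0.00 and 0.01 with the 75th percentile, and the 35 genes had medians of 0.34 and 0.31. Over all genes it called 110 higher and 255 lower in the average, against 691 and 509, and 37 and 62 in wt mice, against 289 and 196. Array position as a block called 358 higher and 167 lower in the average and 72 and 22 in wt mice, and normexp called 216 and 174, and 78 and 57, with 48 and 23 in ko mice, against 89 and 50. Array weights called 1437 and 1052 in the average, 209 and 145 in ko mice and 862 and 589 in wt mice, and slide as a fixed block called 412 and 335 in the average. Median scaling called 19 and 10 in ko mice. Without the 3 arrays the calls were 37 and 18 in ko mice and 110 and 66 in wt mice, and with only the groups compared 6 and 1, and 143 and 92. The probes that stood for Trib3 and Ern1 were dim but still well above background on 16 of 16 arrays.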

Other observations

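Other marker lists gave these values with OVA in the average. Of 6 basal cell markers 0 passed (limma), with 1 at an unadjusted p under 0.05, and Krt15, a keratin of these cells, had -0.41 (adjusted p = 0.176). The genotypes differed in direction, with 5 of 6 positive in ko mice (median 0.30) and 0 of 6 in wt mice (median -0.54). None passed in 1 genotype or for the interaction. For the interaction 4 of 6 had an unadjusted p under 0.05 (limma), against 569 of all 18566 genes. Of 6 macrophage markers 1 rose, Chil3 (2.87), and 1 fell, Marco, a scavenger receptor of alveolar macrophages, which was at the detection floor on 4 of 4 ko_OVA, 1 of 4 ko_saline and 1 of 4 wt_OVA arrays, so its fitted change is no exact size. Of 8 markers of alveolar epithelium 1 fell, the surfactant gene Sftpb (-2.72 (adjusted p = 8.32e-06)), and the median of the 8 was -0.43. By genotype that median was -0.69 in ko mice, with 1 of 8 positive, and 0.06 in wt mice, with 4 of 8 positive. Of 3 eosinophil and 6 fibroblast markers 0 passed (limma), with 0 and 2 at an unadjusted p under 0.05, and the fibroblast markers had a median of -0.50. Of 7 striated muscle markers 0 passed, with 0 at an unadjusted p under 0.05, although their median was -1.65 and all 7 were negative. The fall lay in ko mice, with a median of -3.19 and 0 of 7 positive, against -0.02 and 3 of 7 positive in wt mice. None of the 7 muscle markers passed in 1 genotype alone. In ko mice 2 of the muscle markers had an unadjusted p under 0.05 (limma), against 1807 of all 18566 genes. Their summed signal on the log2 scale ran from 0.94 to 3.02 on ko_OVA arrays, 1.40 to 8.30 on ko_saline, 0.54 to 7.63 on wt_OVA and 1.73 to 5.38 on wt_saline arrays.

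Among marker genes of mucous cells, the transcription factors Foxa3 and Spdef, which drive mucous cell differentiation, rose by 1.71 (adjusted p = 1.73e-06) and 1.23 (adjusted p = 3.77e-05) in the average. Itln1, a lectin of these cells, rose by 3.62. Slc26a4, an anion exchanger, rose too (limma), but was at the detection floor on 1 of 4 ko_saline and 3 of 4 wt_saline arrays, so its fitted change is no exact size. Among club cell markers Aox3 (-0.81), Cckar (-0.85), Hp (-0.95) and Gabrp (-0.48) fell, and among ciliated cell markers Ccdc39 (0.58), Dnah9 (0.67), Cfap52 (0.67) and Dnah5 (0.64) rose. The club cell markers Scgb1a1, Cyp2f2, Aldh1a1 and Lypd2 did not pass. In ko mice Scgb1a1 averaged 9.43 after OVA and 9.35 after saline, and Cyp2f2 8.87 and 8.54. In wt mice Scgb1a1 averaged 9.59 and 9.96, and Cyp2f2 8.73 and 9.51. The mast cell proteases Tpsb2, Mcpt4 and Cpa3 averaged 2.69, 3.39 and 2.64 in ko mice after OVA, against 2.29, 3.26 and 2.75 after saline. In wt mice they averaged -0.16, 1.71 and -0.20 after OVA, against -2.43, -1.82 and -2.45 after saline, where Tpsb2 and Cpa3 were each at the detection floor on 1 of 4 arrays. After saline all 3 were higher in ko mice than in wt mice (limma, adjusted p up to 1.35e-05).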
